A study of Mus musculus with 29 samples.

Results

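The 10 genes described here encode proteins that open membranes during inflammatory cell death, the caspases that switch them on, and the kinase pathway of necroptosis. They are Gsdmc2, Gsdmc3, Gsdmc4, Gsdmd, Casp1, Casp4, Casp8, Mlkl, Ripk3 and Zbp1, chosen by symbol, and each had 1 row among the 54532 genes of the count table. All 10 passed the filter on low counts, which left 18616 genes. Transcript levels were measured by bulk RNA-seq of colon from 29 mice, in 6 colitis models of 3 or 4 mice and 3 control groups of 3 mice.

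The wild-type controls were untreated BALB/c mice. Dextran sulfate sodium (DSS), a polymer that injures the colonic epithelium, was given to BALB/c mice at 3% in the water for 5 days, with collection on day 10. Dinitrobenzene sulfonic acid (DNBS), a hapten, was given to BALB/c mice as 3 mg in 200 µl of 50% ethanol; the labels state no day of collection. IL-10 blockade (IL10 in the plots) consisted of 750 µg doses of a blocking antibody in BALB/c mice, which the protocol text describes as directed at the receptor. These 3 models share the wild-type controls. TRUC mice are BALB/c mice that lack both Tbx21, the transcription factor T-bet, and Rag2, and develop colitis spontaneously; they were set against untreated BALB/c Rag2-/- mice, so both groups carried the Rag2 deletion and lack the mature T and B cells that depend on it. T cell transfer (TCT) gave 500000 naive CD4 T cells to mice labelled C57BL/6 Rag1-/-, collected after 6 to 8 weeks. Anti-CD40, an agonist antibody that activates myeloid cells, was given at 50 µg to mice labelled C57BL/6 Rag1-/-, collected on day 7. Both shared 1 untreated control group labelled C57BL/6 Rag1-/-. The labels state no ages as such. The identifier of TRUC mouse 4 carries a mark that could be read as an age in weeks, which the sources used here do not explain.

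Gasdermins are kept inactive by their own C-terminal domain until a protease cuts it away, after which the N-terminal domains assemble into membrane pores and the cell releases its contents, a death called pyroptosis. Gsdmd is cut by caspase-1, which inflammasomes activate, and by caspase-11, the product of mouse Casp4, which binds bacterial lipopolysaccharide. The Gsdmc genes are a rodent gene cluster expressed in intestinal epithelium. In necroptosis, the sensor Zbp1 or the kinase Ripk1 engages the kinase Ripk3, Ripk3 phosphorylates Mlkl, and Mlkl permeabilizes the plasma membrane, while caspase-8 restrains the pathway and can also cut gasdermins.

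The 3 Gsdmc genes lie side by side on the minus strand of chromosome 15 (GRCm38): Gsdmc2 at chr15:63824346-63845177, Gsdmc3 at chr15:63857724-63878558 and Gsdmc4 at chr15:63891264-63912297. Their coding sequences are shown because reads from such copies are hard to assign. Over their 1440 coding bases, Gsdmc2 and Gsdmc3 were identical at 97.1%, and Gsdmc4 matched either one at 93.8% of 1434 aligned bases. The first 90 coding bases, an exonic stretch read from GENCODE M21 transcripts, differ at 2 positions, which are in capitals:
Gsdmc2, chr15:63835854-63835943, minus strand: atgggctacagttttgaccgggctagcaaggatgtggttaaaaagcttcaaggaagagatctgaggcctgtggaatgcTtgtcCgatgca
Gsdmc3, chr15:63869208-63869297, minus strand: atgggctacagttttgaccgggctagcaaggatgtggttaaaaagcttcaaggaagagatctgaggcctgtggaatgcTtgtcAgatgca
Gsdmc4, chr15:63902841-63902930, minus strand: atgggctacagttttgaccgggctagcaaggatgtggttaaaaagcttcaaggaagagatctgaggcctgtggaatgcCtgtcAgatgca

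Of all 50-base windows of its transcripts, Gsdmc2 shared 51.3% with another gene, all of them with Gsdmc3, Gsdmc4 or Gsdmc. Gsdmc3 shared 46% and Gsdmc4 shared 39% with the same relatives. The level of each of the 3 genes is therefore uncertain, since the counting could split reads between them or drop reads that match several, and their sum is given beside them. Casp8 shared 4.37% of its windows with Gm20257, Casp4 shared 0.24% with Gm42768, and the other 5 members shared none.

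The remaining members are spread over the genome. Gsdmd, the general executor of pyroptosis, lies at chr15:75862327-75867408 on the plus strand. Casp1 (chr9:5298517-5307265) and Casp4 (chr9:5308828-5336783) are neighbours on the plus strand. Casp8, the apical caspase of death receptors, lies at chr1:58795374-58847503 on the plus strand. Mlkl (chr8:111311797-111338177), Ripk3 (chr14:55784995-55788865) and Zbp1 (chr2:173206612-173218923) are on minus strands.

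Depth was 10725564 to 14977094 counts per mouse (median 12287039). Levels are given as CPM, the count of a gene per 1000000 counts of the mouse, scaled by the trimmed mean of M-values (TMM); a count of 3, taken as the floor, was worth 0.179 to 0.314 CPM. Epithelial markers (Epcam, Cdh1, Krt8, Krt18, Krt19 and Vil1) were present in every mouse, with a summed level of 5885 to 16015 CPM, and none of the 6 was at 0 in any group.

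The genotype labels were not matched by the transcripts of the deleted genes in every group. Rag2 had 15 to 25 counts in the Rag2-/- controls and 57 to 94 in TRUC, and likewise 6 to 20 in the controls labelled Rag1-/- and 48 to 99 in anti-CD40, against 0 in TCT and 0 to 1 in the wild-type, DSS, DNBS and IL-10 blockade mice. Rag1 had 20 to 33 counts in TCT and at most 4 in any other mouse. Tbx21 had 26 to 52 counts in TRUC, a group labelled as lacking it, against 1 to 7 in its Rag2-/- controls. Reads from outside a deleted stretch can remain, and the deleted stretches were not given in the sources used here. By these transcripts the TCT mice differed from the libraries labelled Rag1-/- controls, so TCT is also set against the wild-type controls and anti-CD40 also against the Rag2-/- controls.

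In wild-type colon the Gsdmc genes were the most abundant of the 10, and Mlkl, Ripk3, Casp4 and Zbp1 the least. Per kilobase of transcript, wild-type colon had 484 ± 18.3 CPM (SD, n = 3) of Gsdmc4, 190 ± 10.2 of Gsdmc2 and 144 ± 11.3 of Gsdmc3. Casp1 followed at 96.5 ± 1.87, Gsdmd at 71.8 ± 3.85 and Casp8 at 37.1 ± 3.23 CPM per kilobase. Mlkl at 9.45 ± 1.03 and Ripk3 at 8.59 ± 0.140 were neighbours that did not differ beyond their spread, and below them were Casp4 at 5.99 ± 0.507 and Zbp1 at 2.03 ± 0.348. In TRUC the order differed: Gsdmd was highest at 200 ± 24.6 (SD, n = 4), then Casp1 at 175 ± 16 and Ripk3 at 146 ± 30.3, and Gsdmc4 at 12.3 ± 4.80 and Gsdmc3 at 6.83 ± 3.25 were lowest. The spreads of Gsdmd and Casp1 overlapped there, but within each TRUC mouse Gsdmd was the higher, by as little as 169 against 168 CPM per kilobase in mouse 5. Ripk3 was above Casp1 in mouse 3 (186 against 184 CPM per kilobase) and below it in the other TRUC mice.

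**Figure D1:**
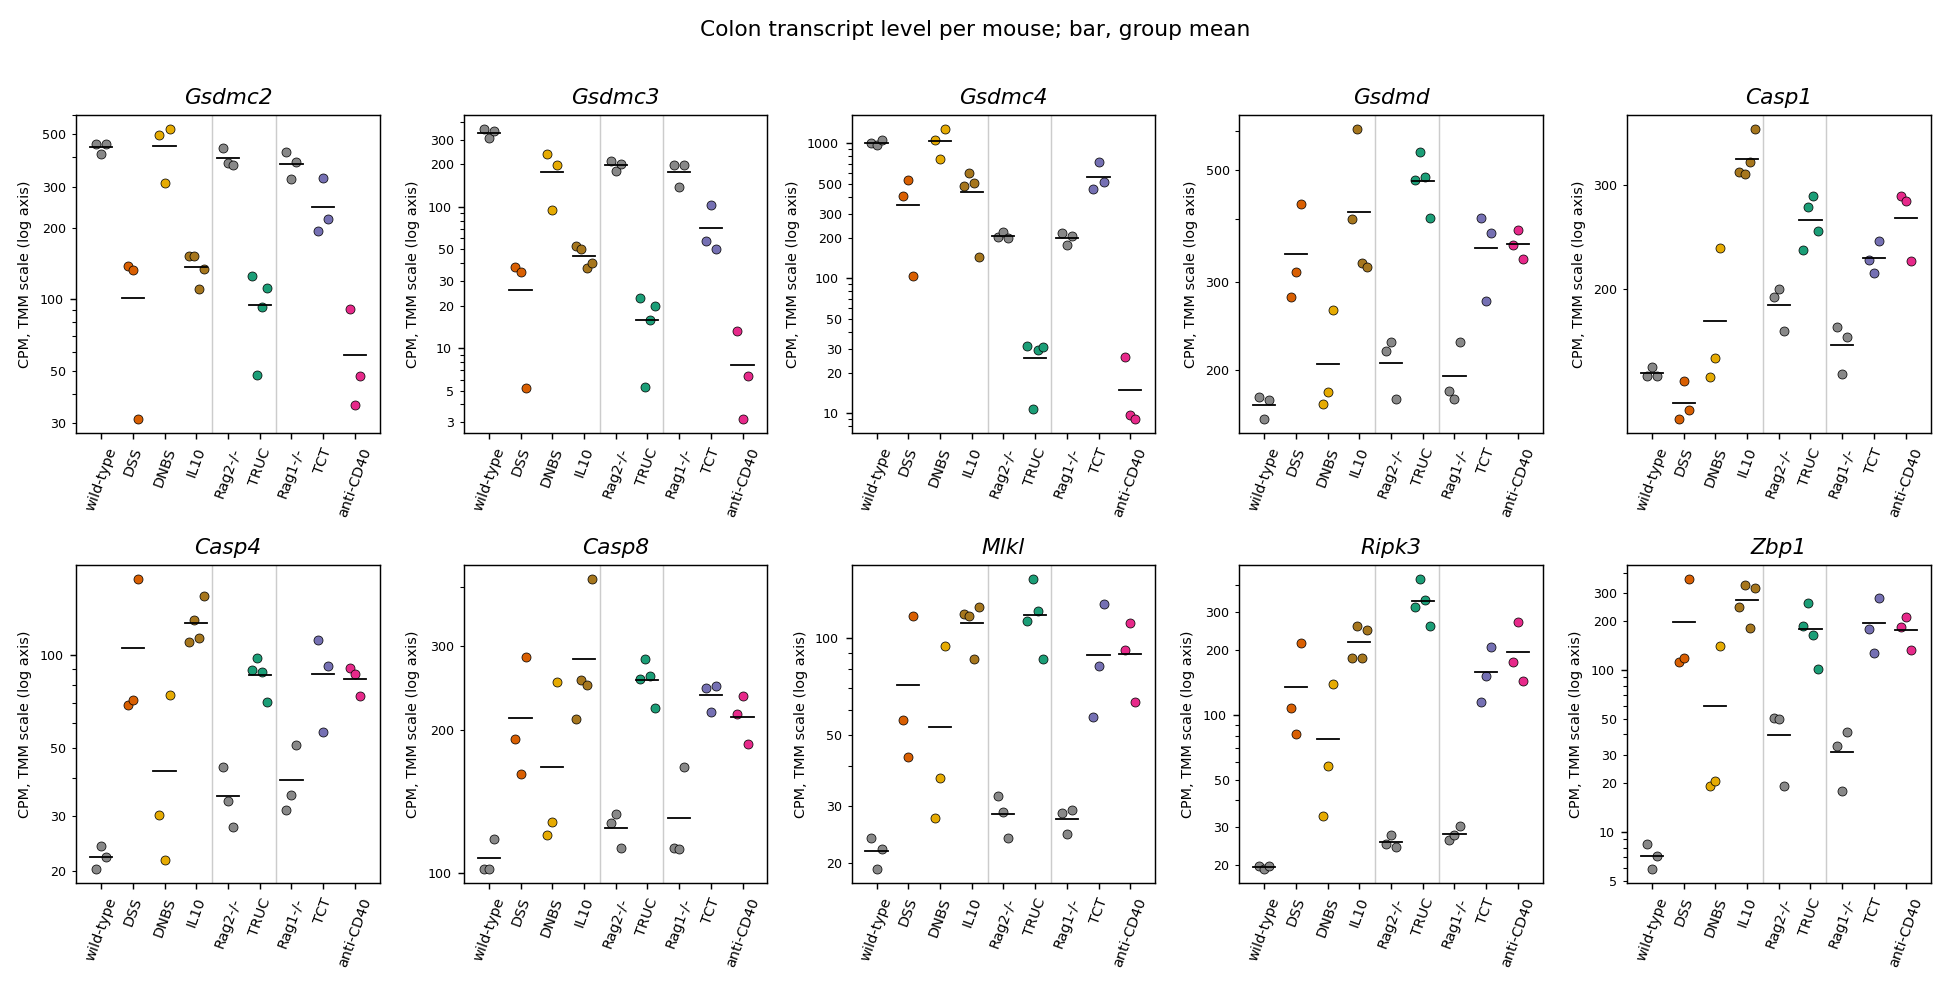
Level of each of the 10 genes in every mouse, as TMM-scaled CPM on a log axis with a different range in each panel. Points are mice, bars are group means, and vertical lines set each control group off with its models. Ripk3 was above the highest mouse of its control group in all 20 colitis mice, and Gsdmc2 was at 312 to 525 CPM in DNBS and 31.3 to 152 CPM in DSS and IL-10 blockade.

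The comparison of each model with its own control asked how the 10 genes changed in colitis of different causes. Calls are at a Benjamini-Hochberg adjusted p under 0.05 across the 18616 genes, from the quasi-likelihood test of edgeR. In TRUC all 10 members passed, 7 higher and 3 lower, against 22.4% of all genes higher and 23.4% lower. In IL-10 blockade 7 were higher and 3 lower, against 27.2% and 26.1% of all genes, and in anti-CD40 7 were higher and 3 lower, against 10.9% and 10.7%. In DSS 6 were higher and 3 lower, against 17.7% and 16.3%. In DNBS 3 were higher and 0 lower, against 3.95% and 2.21%. At an unadjusted p under 0.05 (edgeR), 5 were higher and 0 lower in DNBS. No share of all genes is given for unadjusted counts, here or below, so they have no such comparison. DESeq2 on the 2 groups alone called 1 member lower in DNBS, and 1881 genes in either direction. Against the controls labelled Rag1-/-, TCT had 8 higher and 1 lower, against 16.1% and 14% of all genes.

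The members lower in a model were Gsdmc genes in every case, and those higher were the other members together with Gsdmc4 in TCT alone. In TRUC, DSS, IL-10 blockade and anti-CD40 the mice of model and control did not overlap for any of the 10 members, against 58.0%, 49.9%, 55.7% and 39.6% of all genes. In TCT 9 of 10 did not overlap, against 43.1%, and in DNBS 5 of 10, against 32.4%. The median log2 fold change of the 10 was 1.33 in IL-10 blockade, 1.12 in TRUC, 1.00 in TCT, 0.99 in DSS, 0.79 in anti-CD40 and 0.46 in DNBS, where that of all genes was between -0.03 and 0.02.

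**Figure D2:**
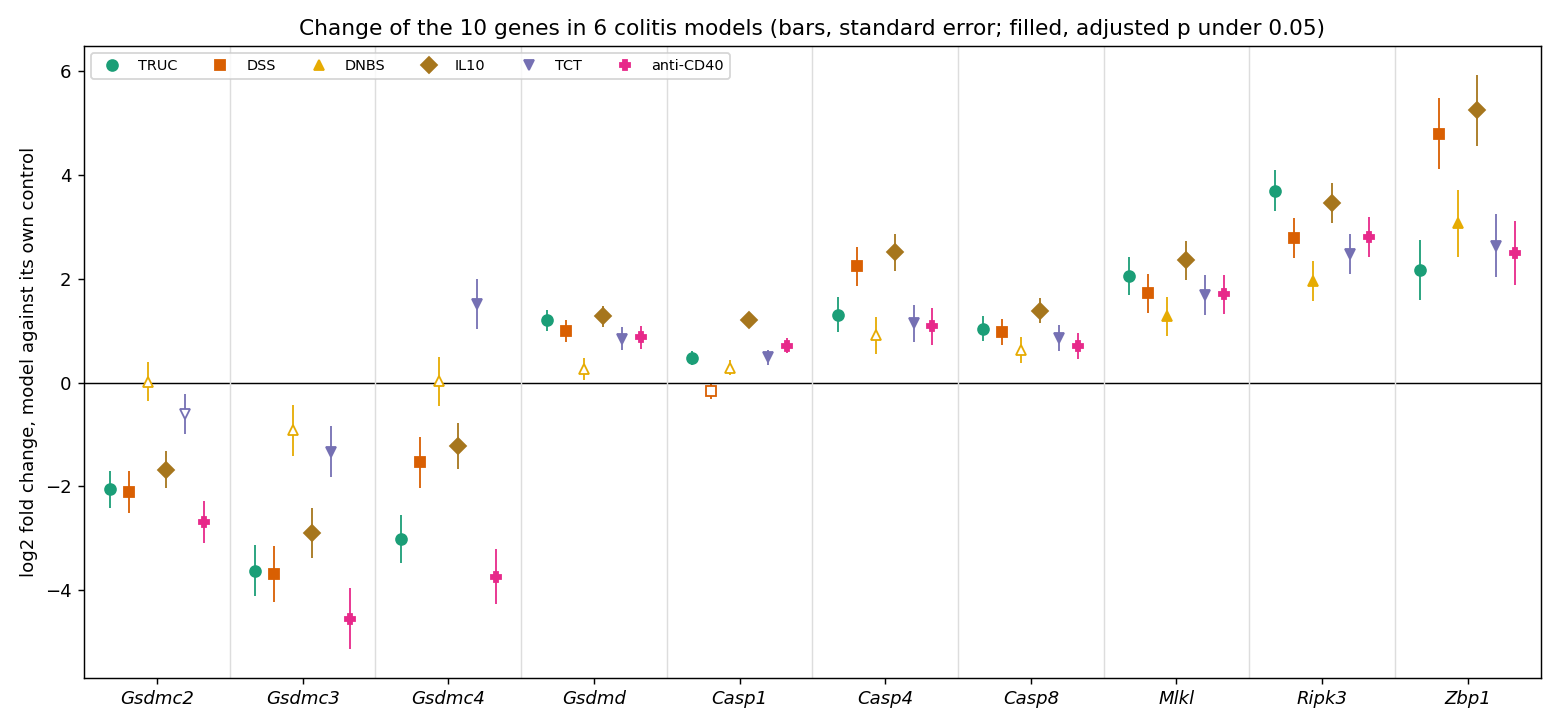
Log2 fold change (edgeR, ± SE) of the 10 genes in the 6 models against their own controls, with filled symbols for an adjusted p under 0.05. Ripk3 and Mlkl lie above 0 in all 6 models, with values of 1.28 to 3.70, and Gsdmc4 is at -3.74 in anti-CD40 and at 1.51 in TCT.

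Gsdmc2 was at 453, 412 and 452 CPM in the 3 wild-type mice, 437, 376 and 370 CPM in the Rag2-/- controls and 418, 324 and 382 CPM in the controls labelled Rag1-/-. It was at 139, 133 and 31.3 CPM in DSS, 152, 152, 111 and 134 CPM in IL-10 blockade, 125, 47.9, 93.1 and 112 CPM in TRUC and 90.9, 35.9 and 47.4 CPM in anti-CD40. All of these 14 mice lay below all of the control mice. In DNBS the 3 mice were at 496, 312 and 525 CPM, and in TCT at 195, 326 and 219 CPM; both groups overlapped their controls.

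Relative to its own control, Gsdmc2 was 4.17-fold lower in TRUC (log2 fold change -2.06, SE 0.363, adjusted p = 0.000105, edgeR), 4.33-fold lower in DSS (-2.11, SE 0.400, adjusted p = 0.000334), 3.20-fold lower in IL-10 blockade (-1.68, SE 0.360, adjusted p = 0.000503) and 6.46-fold lower in anti-CD40 (-2.69, SE 0.411, adjusted p = 0.000109). It did not pass in DNBS (0.02, SE 0.384, adjusted p = 0.986, edgeR) or TCT (-0.60, SE 0.385, adjusted p = 0.250). In TCT it passed when the 2 groups were fitted alone, with an adjusted p of 0.0427 by edgeR and 0.0241 by DESeq2.

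Gsdmc3, the closest copy of Gsdmc2, had larger negative fold changes. It was at 356, 306 and 345 CPM in wild-type mice, against 37.7, 34.7 and 5.20 CPM in DSS and 52.6, 50.1, 36.7 and 40.0 CPM in IL-10 blockade. It was at 213, 179 and 200 CPM in Rag2-/- mice against 22.6, 5.34, 15.9 and 19.9 CPM in TRUC. It was at 197, 139 and 198 CPM in the controls labelled Rag1-/- against 57.8, 104 and 50.7 CPM in TCT and 13.3, 3.17 and 6.39 CPM in anti-CD40. None of these 5 models overlapped its controls, and every anti-CD40 mouse was at or below 13.3 CPM. The 3 DNBS mice, at 237, 95.8 and 199 CPM, were also below the wild-type mice.

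The fall of Gsdmc3 was 12.4-fold in TRUC (log2 fold change -3.63, SE 0.493, adjusted p = 6.23e-06, edgeR), 12.9-fold in DSS (-3.69, SE 0.548, adjusted p = 3.16e-05), 7.48-fold in IL-10 blockade (-2.90, SE 0.475, adjusted p = 3.16e-05) and 23.5-fold in anti-CD40 (-4.55, SE 0.586, adjusted p = 2.16e-05). In DNBS it did not pass (-0.92, SE 0.493, adjusted p = 0.250, edgeR), but passed by DESeq2 on the 2 groups alone (-0.91, adjusted p = 0.0154). In TCT it was 2.51-fold lower (-1.33, SE 0.500, adjusted p = 0.0474, edgeR), a call lost when any 1 of the controls labelled Rag1-/- or TCT mouse 1 or 5 was left out, with a largest adjusted p of 0.170. Against wild-type controls the TCT value was -2.24 (SE 0.513, adjusted p = 0.00222, edgeR).

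The level of Gsdmc4 also differed between the control groups. Wild-type mice had 1008, 973 and 1049 CPM, Rag2-/- controls 202, 221 and 197 CPM, and the controls labelled Rag1-/- 217, 175 and 204 CPM. In Rag2-/- against wild-type controls it was 4.89-fold lower (log2 fold change -2.29, SE 0.495, adjusted p = 0.00310, edgeR). Of the 10 members, this and a higher Zbp1 were the calls between these 2 control groups, 1 lower and 1 higher against 4.86% and 3.25% of all genes.

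Within its models, Gsdmc4 was at 31.6, 10.7, 29.3 and 30.9 CPM in TRUC and 25.9, 9.69 and 9.11 CPM in anti-CD40. It was at 407, 530 and 104 CPM in DSS, 481, 606, 508 and 143 CPM in IL-10 blockade, 1046, 769 and 1271 CPM in DNBS and 456, 726 and 515 CPM in TCT. DSS mouse 8 and IL-10 blockade mouse 4 stood well below the others of their groups, and the DNBS mice lay on both sides of the wild-type mice. Every TCT mouse was above the controls labelled Rag1-/- and below the wild-type controls.

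Gsdmc4 was 8.06-fold lower in TRUC (log2 fold change -3.01, SE 0.463, adjusted p = 2.59e-05, edgeR) and 13.4-fold lower in anti-CD40 (-3.74, SE 0.538, adjusted p = 6.06e-05). It was 2.91-fold lower in DSS (-1.54, SE 0.483, adjusted p = 0.0162, edgeR), which was lost without DSS mouse 8 (-1.11, adjusted p = 0.0878) and with the 2 groups fitted alone (adjusted p = 0.0686). It was 2.32-fold lower in IL-10 blockade (-1.22, SE 0.439, adjusted p = 0.0230, edgeR), which was lost without IL-10 blockade mouse 4 (-0.93, adjusted p = 0.0651) or wild-type mouse 4 (-1.19, adjusted p = 0.0515). It did not pass in DNBS (0.03, SE 0.472, adjusted p = 0.982, edgeR).

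In TCT the direction of Gsdmc4 depended on the control group. Against the controls labelled Rag1-/- it was 2.85-fold higher (log2 fold change 1.51, SE 0.483, adjusted p = 0.0200, edgeR). This call was lost without TCT mouse 3 (1.30, adjusted p = 0.0742), control mouse 3 (1.44, adjusted p = 0.0711) or control mouse 4 (1.54, adjusted p = 0.0507). Against the wild-type controls it was -0.84 (SE 0.475, adjusted p = 0.185, edgeR). With wild-type controls 7 members were higher and 1 lower in TCT, against 16.9% and 13.8% of all genes, and with Rag2-/- controls anti-CD40 had 7 higher and 3 lower, against 12.4% and 11.8%.

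The ratio of Gsdmc4 to Gsdmc2 counts, which needs no scaling between mice, divided the 29 mice into 2 sets that did not follow the labelled strain. Each set held control and colitis mice. It was 0.192 to 0.589 in the 13 mice of the Rag2-/-, TRUC, labelled Rag1-/- control and anti-CD40 groups and 1.07 to 4.58 in the 16 mice of the wild-type, DSS, DNBS, IL-10 blockade and TCT groups. Within the first set it was 0.223 to 0.315 in TRUC against 0.462 to 0.589 in Rag2-/- controls. In anti-CD40 it was 0.192 to 0.285 against 0.518 to 0.539 in the labelled controls. Within the second set it was 2.92 to 3.98 in DSS against 2.22 to 2.36 in wild-type mice. DNBS (2.11 to 2.46), IL-10 blockade (1.07 to 4.58) and TCT (2.23 to 2.35) overlapped the wild-type mice. The ratio of 1.07 was that of IL-10 blockade mouse 4, and the others of that group were at 3.15 to 4.58. Gsdmc4 made up 14.5% to 28.5% of the summed Gsdmc2, Gsdmc3 and Gsdmc4 counts in the first set and 45.1% to 77.5% in the second. Nlrp1b, an inflammasome sensor known to be highly polymorphic between mouse strains, divided the same mice, at 0.258 to 2.31 CPM in the first set and 11.3 to 27.5 CPM in the second. The part of strain, genotype and read assignment in the Gsdmc4 level was not tested.

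**Figure D3:**
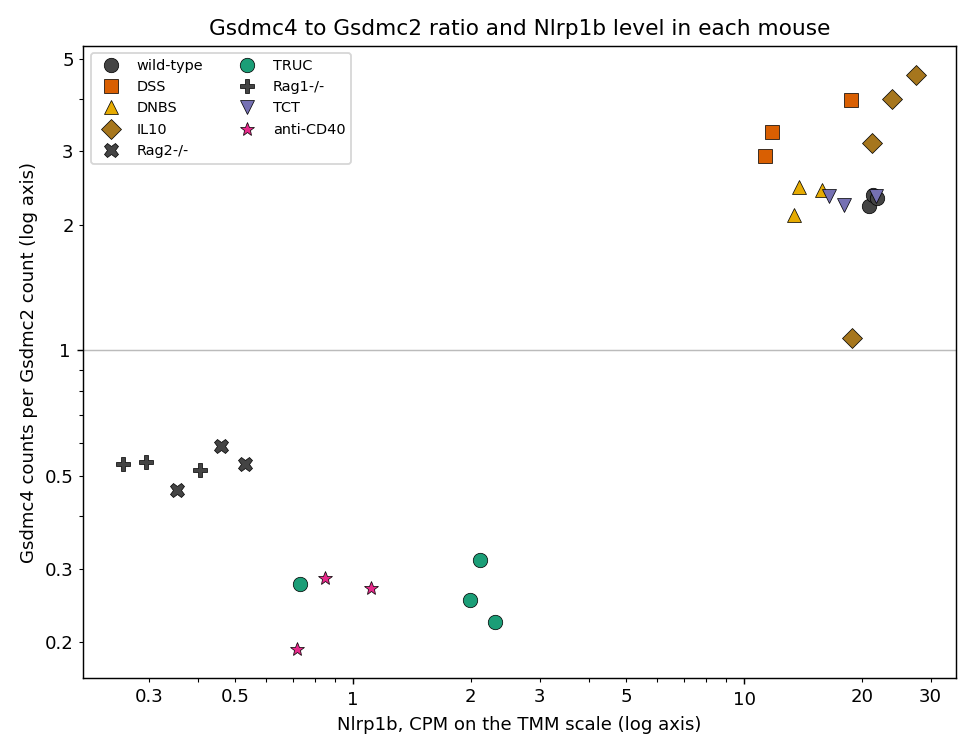
Ratio of Gsdmc4 to Gsdmc2 counts against the Nlrp1b level (TMM-scaled CPM) in the 29 mice, both on log axes; each point is a mouse, coloured by group. The mice form 2 separate sets, with ratios of 0.192 to 0.589 and 1.07 to 4.58, and the TCT mice lie apart from the controls labelled Rag1-/-.

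Gsdmc2, Gsdmc3 and Gsdmc4 were also summed into 1 row, which does not depend on how reads were split among the 3 genes; reads left uncounted because they match several copies are missing from the sum as well. The sum was 1785 ± 82.9 CPM (SD, n = 3) in wild-type mice, 798 ± 46.6 in Rag2-/- controls and 751 ± 101 in controls labelled Rag1-/-. It was 136 ± 51.1 CPM (SD, n = 4) in TRUC and 80.6 ± 43.5 (SD, n = 3) in anti-CD40. The summed row fell by 2.55 on the log2 scale in TRUC (adjusted p = 4.01e-05, edgeR), by 1.91 in DSS (adjusted p = 0.00191), by 1.53 in IL-10 blockade (adjusted p = 0.00267) and by 3.22 in anti-CD40 (adjusted p = 6.85e-05). It did not pass in DNBS (-0.11, SE 0.428, adjusted p = 0.902, edgeR) or in TCT against either the labelled controls (0.23, SE 0.428, adjusted p = 0.723) or the wild-type controls (-1.02, SE 0.432, adjusted p = 0.0765).

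Gsdmcl2, a Gsdmc-like neighbour annotated as a transcribed unprocessed pseudogene on the plus strand, had the expression most like Gsdmc4 over the 29 mice (Pearson r of log2 CPM 0.99). It was 12.8-fold lower in TRUC (adjusted p = 6.10e-05, edgeR), 22.7-fold lower in anti-CD40 (adjusted p = 0.000215) and 6.66-fold lower in Rag2-/- than in wild-type controls (adjusted p = 0.00170). Gsdmcl2 was also 3.49-fold lower in DSS (adjusted p = 0.0113, edgeR) and 3.04-fold lower in IL-10 blockade (adjusted p = 0.00785). It did not pass in DNBS (log2 fold change 0.04, adjusted p = 0.972, edgeR) or in TCT against the labelled controls (1.04, adjusted p = 0.150). Gsdmc2 and Gsdmc3 were each other's closest match (r 0.98), followed for both by Ttr (0.91). These correlations describe mice that share groups and scaling, and for Gsdmc2 and Gsdmc3 also sequence.

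Because the Gsdmc genes are epithelial, epithelial markers are given beside them; their part in the result was not tested, and in bulk tissue fewer cells of a type and less RNA per cell cannot be told apart. The summed epithelial markers were 12301 to 13287 CPM in TRUC against 10367 to 11105 CPM in Rag2-/- controls, and 10874 to 11964 CPM in anti-CD40 against 9302 to 10067 CPM in the labelled controls. Against Rag2-/- controls the anti-CD40 sums overlapped. Of the 6 markers, 3 were higher and 0 lower in TRUC and 1 higher and 0 lower in anti-CD40 (edgeR; at an unadjusted p under 0.05, 0 lower in TRUC and 1 in anti-CD40). In anti-CD40 against Rag2-/- controls 1 was higher and 1 lower. In DSS the summed epithelial markers were 5885 to 7493 CPM against 8287 to 9854 CPM in wild-type mice, with 0 of the 6 higher and 3 lower (edgeR). In IL-10 blockade they were 12041 to 16015 CPM against the same wild-type mice, with 5 higher and 0 lower (edgeR). Of the 7 markers of surface colonocytes (Krt20, Car1, Car4, Slc26a3, Aqp8, Guca2a and Ceacam20), 5 were lower and 1 higher in TRUC, 2 lower and 1 higher in anti-CD40, 1 lower and 1 higher in both DSS and IL-10 blockade, 3 lower and 1 higher in TCT, and 0 either way in DNBS (edgeR; at an unadjusted p under 0.05, 2 lower and 1 higher). Of the same 7, 1 was lower and 1 higher both in TCT against wild-type controls and in anti-CD40 against Rag2-/- controls. Their summed level was 2441 to 3108 CPM in TRUC against 4404 to 5415 CPM in Rag2-/- controls, and none of the 7 was at 0 in any group.

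Gsdmd, the gasdermin cut by caspase-1 and caspase-11, went the other way. It was at 160 to 228 CPM over the 9 control mice and at 401 to 543 CPM in TRUC, 279 to 429 in DSS, 321 to 604 in IL-10 blockade, 275 to 401 in TCT and 333 to 381 in anti-CD40, with no overlap in these 5 models. It was 2.30-fold higher in TRUC (log2 fold change 1.20, SE 0.204, adjusted p = 7.02e-05, edgeR), 2.00-fold in DSS (1.00, SE 0.214, adjusted p = 0.000975), 2.42-fold in IL-10 blockade (1.28, SE 0.205, adjusted p = 2.60e-05), 1.80-fold in TCT (0.85, SE 0.213, adjusted p = 0.00369) and 1.83-fold in anti-CD40 (0.87, SE 0.213, adjusted p = 0.00553). These 5 calls held with each mouse left out. In DNBS, at 171, 181 and 264 CPM, it did not pass (0.27, SE 0.212, adjusted p = 0.448, edgeR).

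Casp1 encodes the inflammasome caspase. It was at 143, 148 and 143 CPM in wild-type mice against 315, 312, 327 and 372 CPM in IL-10 blockade, 121, 140 and 125 CPM in DSS and 142, 153 and 235 CPM in DNBS. It was at 194, 200 and 170 CPM in Rag2-/- controls against 233, 275, 287 and 251 CPM in TRUC. It was at 173, 144 and 166 CPM in the controls labelled Rag1-/- against 224, 213 and 241 CPM in TCT and 287, 281 and 223 CPM in anti-CD40. IL-10 blockade thus held the highest Casp1 mice of the series, while the DSS mice were all slightly below the wild-type mice.

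Casp1 was 2.29-fold higher in IL-10 blockade (log2 fold change 1.20, SE 0.138, adjusted p = 6.74e-07, edgeR), 1.39-fold in TRUC (0.48, SE 0.135, adjusted p = 0.00587), 1.40-fold in TCT (0.49, SE 0.143, adjusted p = 0.0117) and 1.64-fold in anti-CD40 (0.71, SE 0.143, adjusted p = 0.00129). It did not pass in DSS (-0.17, SE 0.143, adjusted p = 0.387, edgeR) or DNBS (0.29, SE 0.143, adjusted p = 0.215). The TCT call was lost without TCT mouse 5 (adjusted p = 0.0517) or control mouse 3 (adjusted p = 0.0574).

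Casp4 was low in healthy colon, at 20.3, 24.1 and 22.2 CPM in wild-type mice, 43.2, 33.7 and 27.6 CPM in Rag2-/- controls and 31.4, 35.2 and 51.0 CPM in the controls labelled Rag1-/-. It was at 68.7, 71.5 and 176 CPM in DSS, 30.3, 21.6 and 74.0 CPM in DNBS and 110, 130, 113 and 155 CPM in IL-10 blockade. It was at 89.1, 97.8, 88.1 and 70.1 CPM in TRUC, 112, 56.2 and 91.8 CPM in TCT and 90.8, 86.8 and 73.3 CPM in anti-CD40. Only the DNBS group overlapped its controls, and DSS mouse 8 and DNBS mouse 16 were far above the others of their groups.

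Casp4 was 5.71-fold higher in IL-10 blockade (log2 fold change 2.51, SE 0.360, adjusted p = 7.40e-06, edgeR), 4.73-fold in DSS (2.24, SE 0.369, adjusted p = 8.79e-05) and 2.48-fold in TRUC (1.31, SE 0.342, adjusted p = 0.00338). It was 2.21-fold higher in TCT (1.14, SE 0.357, adjusted p = 0.0173, edgeR) and 2.13-fold in anti-CD40 (1.09, SE 0.356, adjusted p = 0.0306). These last 2 calls were lost without control mouse 2 or 3, and likewise without TCT mouse 1 or anti-CD40 mouse 6 or 7, with adjusted p values of up to 0.0753 in TCT and 0.107 in anti-CD40. In DNBS it was 0.91 (SE 0.361, adjusted p = 0.121, edgeR).

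Casp8, which starts death receptor apoptosis and restrains necroptosis, was at 102 to 167 CPM over the 9 control mice and at 161 to 415 CPM in the 5 models where it passed. Within each of these 5 models it did not overlap its own controls. It was 2.05-fold higher in TRUC (log2 fold change 1.04, SE 0.239, adjusted p = 0.00125, edgeR), 1.97-fold in DSS (0.98, SE 0.251, adjusted p = 0.00424), 2.62-fold in IL-10 blockade (1.39, SE 0.242, adjusted p = 6.18e-05), 1.81-fold in TCT (0.86, SE 0.250, adjusted p = 0.0113) and 1.63-fold in anti-CD40 (0.70, SE 0.250, adjusted p = 0.0463). The call was lost in DSS without mouse 8 (adjusted p = 0.0514), in TCT without control mouse 3 (adjusted p = 0.0556), and in anti-CD40 without control mouse 2 or 3 or anti-CD40 mouse 6 or 7 (adjusted p up to 0.168). In DNBS, at 120, 128 and 252 CPM, it did not pass (0.63, SE 0.250, adjusted p = 0.121, edgeR), and passed without DNBS mouse 11 (0.82, adjusted p = 0.0419).

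Ripk3, the kinase that activates Mlkl, was at 19.9, 19.3 and 19.8 CPM in wild-type mice, 25.2, 27.8 and 24.2 CPM in Rag2-/- controls and 26.2, 27.6 and 30.4 CPM in the controls labelled Rag1-/-. It was at 315, 426, 341 and 259 CPM in TRUC, 107, 81.6 and 216 CPM in DSS and 183, 257, 184 and 248 CPM in IL-10 blockade. It was at 34.0, 58.1 and 139 CPM in DNBS, 115, 151 and 205 CPM in TCT and 175, 269 and 143 CPM in anti-CD40. All 20 colitis mice lay above all 9 control mice, whose levels were close together.

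Ripk3 was 13.0-fold higher in TRUC (log2 fold change 3.70, SE 0.391, adjusted p = 2.78e-07, edgeR), 11.1-fold in IL-10 blockade (3.47, SE 0.388, adjusted p = 4.92e-07), 6.97-fold in anti-CD40 (2.80, SE 0.386, adjusted p = 4.13e-05), 6.86-fold in DSS (2.78, SE 0.387, adjusted p = 1.71e-05), 5.59-fold in TCT (2.48, SE 0.382, adjusted p = 2.48e-05) and 3.90-fold in DNBS (1.96, SE 0.378, adjusted p = 0.00513). The 6 calls held with each mouse left out, with a largest adjusted p of 0.0436 in DNBS. With DNBS and wild-type mice fitted alone the adjusted p was 0.0564 (edgeR).

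The Ripk3 promoter is shown because Ripk3 rose in all 6 models and its window held the one motif match found among the members. RefSeq promoter windows (GRCm38.p6, 250 bases before to 50 after a start) were at hand for 6 members, Gsdmc3, Casp1, Casp4, Casp8, Mlkl and Ripk3, in 7 windows. Both strands were searched for an interferon-stimulated response element core (GAAANNGAA) and a STAT6 type site (TTCNNNNGAA), which 8.56% and 6.95% of all 32851 windows held. The capitals mark GAAAGGGAA, at bases 265 to 273 of the 300-base window, and the stretch printed runs from 120 bases before the start to 30 after it:
Ripk3, chr14:55788828-55788977, minus strand: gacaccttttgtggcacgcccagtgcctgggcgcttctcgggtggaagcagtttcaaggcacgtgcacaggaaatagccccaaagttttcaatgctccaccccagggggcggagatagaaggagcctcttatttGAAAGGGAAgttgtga
The match is a description of letters, not of binding.

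Mlkl, the effector of necroptosis, followed Ripk3 at lower amplitude. It was at 23.9, 19.2 and 22.1 CPM in wild-type mice against 55.8, 42.7 and 117 CPM in DSS, 27.6, 36.8 and 94.5 CPM in DNBS and 119, 117, 86.0 and 125 CPM in IL-10 blockade. It was at 32.3, 28.9 and 23.9 CPM in Rag2-/- controls against 113, 153, 122 and 86.1 CPM in TRUC. It was at 28.6, 24.6 and 29.3 CPM in the controls labelled Rag1-/- against 56.9, 82.3 and 128 CPM in TCT and 91.7, 112 and 63.6 CPM in anti-CD40. No model overlapped its own controls, though the lowest DNBS mouse was close to them.

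Mlkl was 4.17-fold higher in TRUC (log2 fold change 2.06, SE 0.367, adjusted p = 0.000117, edgeR), 5.13-fold in IL-10 blockade (2.36, SE 0.373, adjusted p = 2.23e-05), 3.29-fold in DSS (1.72, SE 0.380, adjusted p = 0.00130), 3.23-fold in TCT (1.69, SE 0.378, adjusted p = 0.00141) and 3.24-fold in anti-CD40 (1.70, SE 0.378, adjusted p = 0.00291). In DNBS it was 2.43-fold higher (1.28, SE 0.377, adjusted p = 0.0441, edgeR). That DNBS call was lost without DNBS mouse 16 (0.57, adjusted p = 0.443), DNBS mouse 14 (1.49, adjusted p = 0.0596) or any 1 wild-type mouse (adjusted p up to 0.151). Ripk3 was the gene whose levels were most like those of Mlkl (Pearson r of log2 CPM 0.98 over the 29 mice), followed by Socs1 and Cd47 (0.97).

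Zbp1, an interferon-inducible sensor of Z-form nucleic acids that binds Ripk3, was the scarcest member in wild-type colon, at 8.38, 5.93 and 7.14 CPM. It was at 50.6, 49.8 and 19.1 CPM in Rag2-/- controls and 34.0, 17.8 and 41.6 CPM in the controls labelled Rag1-/-, so the control groups differed. Rag2-/- controls were 5.57-fold above wild-type (log2 fold change 2.48, SE 0.638, adjusted p = 0.0137, edgeR), a call lost without Rag2-/- mouse 1 or 2 or wild-type mouse 2 or 4 (adjusted p up to 0.0733).

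In colitis, Zbp1 was at 112, 118 and 365 CPM in DSS, 19.3, 20.6 and 141 CPM in DNBS and 245, 337, 183 and 323 CPM in IL-10 blockade. It was at 186, 261, 165 and 102 CPM in TRUC, 179, 128 and 277 CPM in TCT and 184, 212 and 133 CPM in anti-CD40. No model overlapped its own controls, and in DNBS mouse 16 was apart from the other 2.

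Zbp1 was 38.1-fold higher in IL-10 blockade (log2 fold change 5.25, SE 0.688, adjusted p = 2.84e-06, edgeR), 27.8-fold in DSS (4.80, SE 0.687, adjusted p = 2.27e-05) and 8.42-fold in DNBS (3.07, SE 0.647, adjusted p = 0.00848), all against the low wild-type level. It was 4.49-fold higher in TRUC (2.17, SE 0.578, adjusted p = 0.00398, edgeR), 6.25-fold in TCT (2.64, SE 0.612, adjusted p = 0.00191) and 5.66-fold in anti-CD40 (2.50, SE 0.609, adjusted p = 0.00548). Against wild-type controls the TCT value was 27.2-fold (4.77, SE 0.686, adjusted p = 2.98e-05, edgeR). The DNBS call was lost without DNBS mouse 16 (1.48, adjusted p = 0.135) or wild-type mouse 2 (2.95, adjusted p = 0.0539).

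The size of the change differed between the 6 models for 8 of the 10 members, in a test of the 6 contrasts against each other that 60.5% of all genes passed (edgeR). The adjusted p was 4.69e-07 for Gsdmc4, 1.09e-06 for Casp1, 1.48e-05 for Gsdmc3, 2.49e-05 for Gsdmc2, 0.00410 for Casp4, 0.00479 for Zbp1, 0.00532 for Gsdmd and 0.00686 for Ripk3. For Casp8 (adjusted p = 0.0922, edgeR) and Mlkl (adjusted p = 0.127) the models did not differ past the threshold, with fold changes of 0.63 to 1.39 and 1.28 to 2.36 on the log2 scale.

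Genes upstream and downstream of the members were followed in lists of the pathway. The counts of each list stand beside the shares of all genes given above for each model, and with few genes in a list several of them lie near those shares: the 7 other caspases, with 2 higher and 1 lower in TRUC where 22.4% and 23.4% of all genes were, are one case. Of 13 inflammasome genes, the sensors and the adaptor Pycard, 7 were higher and 1 lower in TRUC, 3 and 7 in DSS, 0 and 1 in DNBS, 7 and 2 in IL-10 blockade, 8 and 2 in TCT, and 4 and 0 in anti-CD40 (edgeR; at an unadjusted p under 0.05, 1 higher in DNBS and 0 lower in anti-CD40). Against the other control groups, 3 were higher and 1 lower in TCT (wild-type controls) and 2 higher and 0 lower in anti-CD40 (Rag2-/- controls). Nlrp3, the sensor of potassium efflux, had the largest mean rise, at 1.22 to 1.27 CPM in wild-type mice against 3.40, 11.5 and 153 CPM in the 3 DSS mice, a log2 fold change of 5.48 (SE 0.892, adjusted p = 7.80e-05, edgeR). Nlrp3 also rose in TRUC (3.51, adjusted p = 0.00354, edgeR) and TCT (3.68, adjusted p = 0.00499), from mean control levels of 0.578 and 0.534 CPM. Nlrp9b, an epithelial sensor of viral RNA, had the largest mean fall, with -1.63 in DNBS (adjusted p = 0.00348, edgeR), -0.96 in IL-10 blockade (adjusted p = 0.00506), -0.79 in TCT (adjusted p = 0.0442) and -0.75 in DSS (adjusted p = 0.0490).

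Among the products that pyroptosis releases, Il1b, a cytokine that caspase-1 matures, rose in all 6 models. Its log2 fold change was 8.47 in DSS (adjusted p = 6.34e-06, edgeR), 6.00 in TRUC (adjusted p = 7.12e-05), 5.07 in IL-10 blockade (adjusted p = 0.000158), 5.01 in TCT (adjusted p = 0.000427), 3.66 in DNBS (adjusted p = 0.0284) and 2.94 in anti-CD40 (adjusted p = 0.0386). In DSS the mice ranged from 48.4 to 1291 CPM of Il1b. Il18, an epithelial cytokine matured by the same enzyme, passed in TCT alone, at 52.6 CPM against 166 CPM in the labelled controls (log2 fold change -1.66, SE 0.463, adjusted p = 0.00827, edgeR), and its value was -0.77 to -0.05 in the other 5 models. The wild-type controls had a mean of 110 CPM of Il18. Against them the TCT call was lost: 0 of the 4 genes of this list were lower, and 1 at an unadjusted p under 0.05 (edgeR).

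Of the other gasdermins, 2 of 7 passed the filter on low counts, Gsdma and Gsdme. Gsdme, which caspase-3 cuts, was lower in TCT (log2 fold change -1.09, SE 0.282, adjusted p = 0.00496, edgeR) and anti-CD40 (-0.80, SE 0.279, adjusted p = 0.0426), and its value was -0.31 to 0.54 in the other models. Gsdme passed neither in TCT against wild-type controls (-0.69, SE 0.283, adjusted p = 0.0656, edgeR) nor in anti-CD40 against Rag2-/- controls (-0.48, SE 0.279, adjusted p = 0.217). Gsdma was higher in DSS alone among the 6. Of 7 other caspases, 2 were higher and 1 lower in TRUC, 1 and 3 in DSS, 4 and 1 in IL-10 blockade, 2 and 1 in TCT and 3 and 1 in anti-CD40. In DNBS the edgeR counts were 0 and 0, and 1 and 0 at an unadjusted p under 0.05. With wild-type controls the counts were 3 and 2 in TCT, and with Rag2-/- controls 2 and 1 in anti-CD40. Casp12, a relative of Casp4 and Casp1 beside them on chromosome 9, had the largest mean rise, passing in DSS (1.31, adjusted p = 0.000223, edgeR), IL-10 blockade (0.65, adjusted p = 0.0178), TCT (1.59, adjusted p = 2.44e-05) and anti-CD40 (0.82, adjusted p = 0.0181). Casp14, a caspase of keratinizing epithelium, was lower in TRUC (-1.58, adjusted p = 0.0420, edgeR) and DSS (-2.41, adjusted p = 0.0104).

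Of 15 death receptor and RIP kinase partners, 10 were higher in IL-10 blockade, 9 in TRUC, 8 in anti-CD40, 7 in TCT, 5 in DSS and 1 in DNBS, and 2 were lower in DSS and 1 in IL-10 blockade. With wild-type controls 5 were higher and 0 lower in TCT, and with Rag2-/- controls 8 were higher and 0 lower in anti-CD40. Tnfrsf1a, the main TNF receptor, rose in all 6, by 0.91 (DNBS, adjusted p = 0.0437, edgeR) to 1.71 (IL-10 blockade, adjusted p = 1.47e-05) on the log2 scale. Fas, the receptor that recruits caspase-8, rose in 5, by 1.02 in TCT (adjusted p = 0.0423, edgeR) to 1.62 in IL-10 blockade (adjusted p = 0.000701), and was 0.35 in DNBS (adjusted p = 0.587). Tnfaip3, the ubiquitin editor A20 that restrains NF-kB signalling, rose in the same 5 models, by 0.91 in TCT (adjusted p = 0.0321, edgeR) to 1.65 in DSS (adjusted p = 0.000418). Tnfrsf10b, the mouse TRAIL receptor, was higher in TRUC (0.68) and had values of -0.43 to 0.10 elsewhere.

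Interferons induce several members, Zbp1 among them, and all 10 genes of the interferon response were higher in DSS and in IL-10 blockade. In TRUC, TCT and anti-CD40 6 of 10 were higher, in DNBS 4, and 0 were lower in any model, also at an unadjusted p under 0.05 (edgeR). Against the other control groups, 10 were higher in TCT (wild-type controls) and 5 in anti-CD40 (Rag2-/- controls). The list's median log2 fold change was 2.90 in IL-10 blockade, 2.36 in DSS, 1.34 in anti-CD40, 1.31 in TCT and 1.27 in both TRUC and DNBS. With Ifng taken at its bound, where its controls were at or under the floor, these medians did not change. The interferon regulatory factors Irf1 and Irf8 rose in the 5 models other than DNBS, Irf9 rose in all 6, and the GTPase Gbp2 rose in all but TRUC (1.72, adjusted p = 0.0848, edgeR).

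Ifng itself was at 0 to 1 counts in every control mouse, and so was listed at or under the floor there. It was at 3.93 to 6.95 CPM in TCT, 2.81 to 7.01 CPM in IL-10 blockade, 0.896 to 3.11 CPM in TRUC and 0.359 to 1.63 CPM in anti-CD40. In DSS it was 47.5 CPM in the highest mouse and 0.137 and 0.441 CPM in the other 2, and in DNBS 3.16 CPM in the highest and 0.00 and 0.119 CPM in the other 2.

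Type 2 cytokines are known inducers of the Gsdmc genes, so 8 genes of that response were also followed. Il5, Il13 and Il25 did not pass the filter on low counts. Of the other 5, 2 were higher and 0 lower in TRUC, 3 and 0 in DSS and 1 and 0 in DNBS (edgeR). The counts were 2 and 2 in IL-10 blockade, 2 and 0 in TCT and 2 and 1 in anti-CD40. They were also 2 and 0 in TCT against wild-type controls and in anti-CD40 against Rag2-/- controls. Stat6 passed in 0 models, and Dclk1 was higher in 1 and lower in 2. Il4 was at 0.563 to 1.32 CPM as a mean in every model and 0.894 to 1.10 CPM in the controls, and was lower in IL-10 blockade (log2 fold change -0.97, SE 0.317, adjusted p = 0.0133, edgeR). Il4ra, the receptor chain for IL-4 and IL-13, rose in 5 models, by 1.61 in anti-CD40 (adjusted p = 0.00394, edgeR) to 2.63 in IL-10 blockade (adjusted p = 6.30e-06), and was 1.18 in DNBS (adjusted p = 0.0563). Retnlb, a goblet cell product induced in type 2 responses, was at 0 to 1 counts in wild-type mice and 1.07 to 6.57 CPM in the other controls, and at 122 to 154 CPM in TRUC, 78.5 to 874 CPM in IL-10 blockade and 3.11 to 53.7 CPM in DNBS. It was at 9.03 to 29.5 CPM in DSS, 26.7 to 44.9 CPM in TCT and 28.1 to 128 CPM in anti-CD40, and passed as higher in all 6 models (edgeR).

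**Figure D4:**
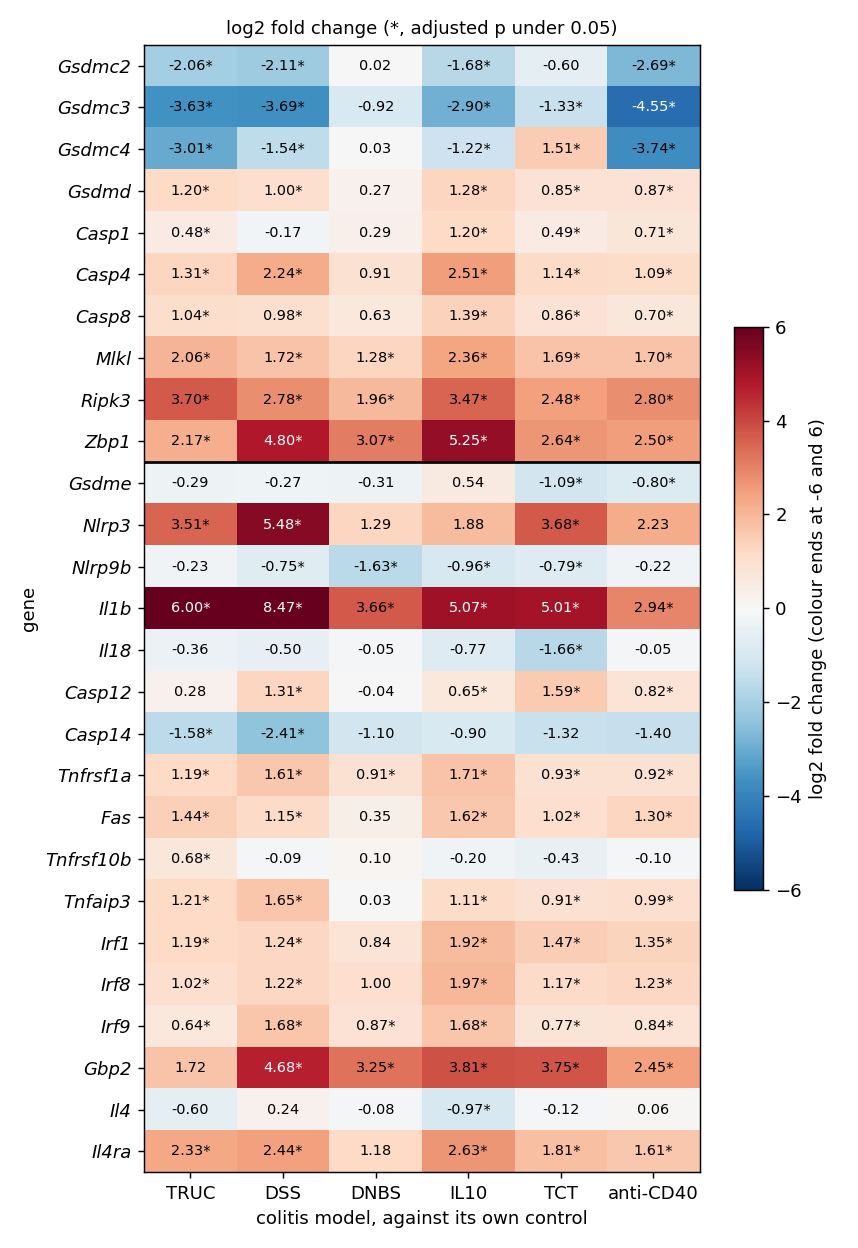
Log2 fold change (edgeR) of the 10 genes, above the line, and of pathway genes chosen by the naming rule, below it, in the 6 models against their own controls; asterisks mark an adjusted p under 0.05 and the colour ends at -6 and 6. Not every such gene is drawn; Ifng and Retnlb are left out because their wild-type controls were at 0 to 1 counts. Rises of Ripk3 (1.96 to 3.70), Tnfrsf1a (0.91 to 1.71) and Il1b (2.94 to 8.47) appear in all 6 columns.

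Myeloid markers were also higher in colitis. All 6 neutrophil markers (S100a8, S100a9, Csf3r, Cxcr2, Retnlg and Mmp8) passed as higher in 5 models and 4 of 6 in anti-CD40, and of 6 macrophage and monocyte markers (Adgre1, Csf1r, Cd68, Cd14, Lyz2 and Itgam) 6 passed in TRUC and DSS, 5 in TCT, 3 in IL-10 blockade, 2 in anti-CD40 and 0 in DNBS (edgeR; 4 in DNBS at an unadjusted p under 0.05). The neutrophil markers summed to 0.973 to 2.11 CPM over the 9 control mice and to 757 to 1258 CPM in TRUC, 190 to 1818 in DSS, 22.2 to 108 in DNBS, 133 to 342 in IL-10 blockade, 112 to 264 in TCT and 32.9 to 191 in anti-CD40. The macrophage and monocyte markers summed to 318 to 441 CPM in controls and to 1092 to 1303 CPM in TRUC, 965 to 2543 in DSS, 610 to 622 in DNBS, 877 to 1404 in IL-10 blockade, 1317 to 2237 in TCT and 956 to 1177 in anti-CD40. One of the 6 neutrophil markers was at 0 in each control group, and none of either list was at 0 in any model. DSS mouse 8, highest of its group for Gsdmd, Casp4, Casp8, Mlkl, Ripk3 and Zbp1 and lowest for the 3 Gsdmc genes, was also highest for both sums. DNBS mouse 16, highest of its group for all members but Gsdmc3, had an interferon response sum of 2180 CPM where the other 2 had 432 and 506 CPM. The part of infiltrating cells in the members' levels was not tested.

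Over the 29 mice, the genes most like Zbp1 were Gm5431 (Pearson r of log2 CPM 0.98), Irf9 and Parp9 (0.96), and those most like Casp4 were Zbp1 and Gm5431 (0.96) and Trafd1 (0.94), out of the 11078 genes whose mean count reached 100. Those most like Ripk3 were Mfsd2a, Gmppb and Mlkl (0.98), and those most like Gsdmd were Eps8 (0.96), Stom and Plscr1 (0.95). Casp1 was most like Txn1, Pls1 and Uqcrq (0.95), and Casp8 most like Rnf19b, Hspa12a and Psmb8 (0.95). The 29 points share groups and scaling, so these values carry no test.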

How the data were processed

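Colon RNA from 29 mice was sequenced, and the authors deposited raw read counts per gene. Per the labels, reads were trimmed with Trimmomatic, aligned with HISAT2 to GRCm38 and counted with HTSeq; versions and the strand setting were not given in the sources used here. ERCC spike-in entries (92, total 0) were left out. The sources name each library as a mouse; where they say no more, p-values measure the spread between these libraries.

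Genes whose mean count reached 3 were kept (18616 of 54532), scaled by TMM, and fitted with the edgeR quasi-likelihood model (edgeR 4.0.16, limma 3.58.1, R 4.3.3), with all 9 groups in 1 fit and no covariates. Each model was set against its own control, with Benjamini-Hochberg adjustment over all genes. Fold changes are edgeR estimates, and SDs are over CPM. Intervals and floors cover counting error only. Library totals were 10725564 to 14977094 counts. The 33 pairs of mice within a group differed by at least 3.65 times sampling noise. Counts were simulated on gene means pooled over all groups, with 200 of 18616 genes changed in the TRUC mice, which were tested against Rag2-/- controls. The changed genes were drawn only from genes with mean counts well above the filter. Of these changes, 73.0% of 2-fold and 92.0% of 4-fold ones were recovered, and 7 other genes were called. Recovery at low counts was not tested.

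Alternatives were RLE and upper quartile scaling, other filters, the 2 groups alone (edgeR, DESeq2 1.42.0), a replicate block, other control groups, the 3 Gsdmc genes summed, and leaving out each mouse. The members and lists were chosen with earlier results of these data known. Pathway genes were named if they passed in 1 direction in at least 5 models or had the largest mean rise or fall of their list; for each member, the 3 genes most correlated with it (Pearson, mean count 100 or more) were named. Not every gene that meets this rule is reported here. Gsdmcl2, Nlrp1b and Gsdma fall outside this rule in part and were picked after their values were seen. The labels and the study's methods differ on the strain of the wild-type and DSS mice, on the means of IL-10 loss and on the collection times of DSS and TCT; the label of the TCT recipients and the protocol text beside it differ on the deleted Rag gene. Groups follow the sample labels, and times the protocol text.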

Additional observations from a re-analysis of the deposited data

Results flagged for a closer look

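In the groups of 4 mice, 20 sets of values were examined for a mouse far from the rest, by the gap to its nearest neighbour over the group's range (Dixon's test, whose limit chance passes in about 1 in 20 groups). Gsdmc4 in TRUC gave 0.930, with mouse 3 lowest at 10.7 CPM, and Gsdmc4 in IL-10 blockade gave 0.840, with mouse 4 lowest at 143 CPM.

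The change against control differed between the 6 models, by the edgeR test of the difference itself, for Gsdmc2 (adjusted p = 2.49e-05), Gsdmc3 (1.48e-05), Gsdmc4 (4.69e-07), Gsdmd (0.00532), Casp1 (1.09e-06), Casp4 (0.00410), Ripk3 (0.00686) and Zbp1 (0.00479). The models also differ in control group, strain and time of collection, which cannot be told apart from the model.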

How the results depend on the processing

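RLE scaling, no filter on low counts and filterByExpr changed no call of a member in any of the 6 models. Upper quartile scaling changed 1, Mlkl in DNBS (1.18, adjusted p = 0.0523, edgeR), moved 5 of 90 mean levels by more than their SD, all in wild-type mice, and shifted the median of all genes by -0.11 in TRUC and -0.17 in IL-10 blockade; the share of calls that were higher went from 51.0% to 38.4% in IL-10 blockade and from 64.1% to 51.0% in DNBS. With the 2 groups alone, members higher in DNBS were 0 by edgeR (3 with all groups), members lower in DNBS were 1 by DESeq2, and members lower in TCT were 2 by both. Genes called in DNBS were 1148 with all groups, 628 with edgeR on the 2 groups alone and 1881 with DESeq2. In TCT, Gsdmc4 turned to -0.84 with wild-type controls. The row of summed Gsdmc genes, of which Gsdmc4 made up 62.8% to 65.7% in TCT, was at 0.23 there, where Gsdmc3 alone was at -1.33. The cause was not tested.

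Leaving out each mouse, members higher ranged from 7 to 7 in TRUC, 5 to 6 in DSS, 1 to 4 in DNBS, 7 to 7 in IL-10 blockade, 4 to 7 in TCT (8 with all mice) and 5 to 7 in anti-CD40. Members lower ranged from 3 to 3 in TRUC, 2 to 3 in DSS, 0 to 0 in DNBS, 2 to 3 in IL-10 blockade, 0 to 1 in TCT and 3 to 3 in anti-CD40; in Rag2-/- against wild-type mice members higher ranged from 0 to 1. TCT had 4 members higher without control mouse 3, and DNBS 1 without DNBS mouse 16 or wild-type mouse 2. Genes called ranged from 195 to 2346 in DNBS and from 1749 to 4752 in anti-CD40 (4015 with all mice).

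Replicate numbers did not pair the mice: same-numbered mice of IL-10 blockade and wild-type, and of TRUC and Rag2-/-, had correlations of deviations of -0.05 to 0.06. With a replicate block, 7552 genes were called in IL-10 blockade and 6929 in TRUC, and none of the 20 member calls changed.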
